A study of Mus musculus with 2 samples.

Results

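The genes described are 3 peptidases of the intestinal brush border, Mep1a, Anpep and Ace, and 2 subunits of an amino acid carrier, Slc3a2 and Slc7a8. They were chosen by gene symbol from the 1559 genes named in the authors' deposited comparison of a high-glucose diet with a control diet, and all 5 were found there with 1 probe set each. RNA labelled as jejunum, a stretch of the small bowel, came from male C57BL/6J mice that were 10 weeks old when it was taken. The control mice ate a regular AIN76 chow and the others a diet labelled HGD with 20% glucose, in both cases for 4 weeks after 2 weeks of acclimation. Each diet was measured on 1 Affymetrix array, and the sources used here do not say how many animals stand behind it. Every difference below therefore sets 1 array against 1 other, without a replicate error or a test, and the diet cannot be told apart from differences among the mice or between the hybridisations. Precision is limited by the number of arrays.

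Dietary protein is cut by pancreatic enzymes and then by peptidases anchored in the microvilli of enterocytes, the absorbing cells of the gut. Meprin alpha, encoded by Mep1a, is a zinc endopeptidase of the astacin family. Aminopeptidase N, encoded by Anpep, takes single residues off the amino end of a peptide. Angiotensin-converting enzyme, encoded by Ace, takes dipeptides off the carboxyl end and also activates angiotensin, and endothelial cells make it as well. Slc3a2 encodes the CD98 heavy chain, which brings several light chains to the cell surface. The light chain encoded by Slc7a8, LAT2, exchanges neutral amino acids at the basolateral side of the epithelium once it is joined to that heavy chain.

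RefSeq's promoter table (GRCm38.p6) held all 5 genes, with 2 start sites for Ace and 1 for each of the others. The 250 bases before a start were searched on both strands for 7 motifs, chosen with the results and sequences known. The general promoter motifs among them were the GC box (GGGCGG) and the TATA box (TATAAA). For factors of intestinal genes the letters were TTTATG for the Cdx family, AGATAA for the GATA family, GTTAAT as part of the HNF1 site and CAAAGT as part of the HNF4 site. The core of the amino acid response element was searched as TGATGNAA, where N is any base. Sequences are shown for the 3 genes whose signal ratios lay highest against the array as a whole, Mep1a, Ace and Slc7a8, in lower case with motif matches in capitals.
Mep1a (chr17:43502774-43503023, minus strand): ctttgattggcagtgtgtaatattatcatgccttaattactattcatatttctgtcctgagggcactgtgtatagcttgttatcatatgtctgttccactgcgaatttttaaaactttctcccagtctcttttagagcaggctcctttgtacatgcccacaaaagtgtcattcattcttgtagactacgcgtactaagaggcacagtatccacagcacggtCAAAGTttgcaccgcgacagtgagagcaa
Ace, upstream start site (chr11:105967698-105967947, plus strand): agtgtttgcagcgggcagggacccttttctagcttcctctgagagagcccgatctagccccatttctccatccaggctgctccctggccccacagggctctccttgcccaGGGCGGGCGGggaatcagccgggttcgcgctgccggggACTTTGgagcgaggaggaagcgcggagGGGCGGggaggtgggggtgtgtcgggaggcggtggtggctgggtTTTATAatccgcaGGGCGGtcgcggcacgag
Slc7a8 (chr14:54781887-54782136, minus strand): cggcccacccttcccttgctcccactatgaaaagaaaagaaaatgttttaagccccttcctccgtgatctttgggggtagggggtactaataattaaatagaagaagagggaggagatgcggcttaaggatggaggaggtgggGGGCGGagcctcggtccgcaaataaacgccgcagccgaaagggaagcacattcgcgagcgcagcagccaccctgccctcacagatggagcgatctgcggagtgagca

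The stretch before Mep1a held a single match, CAAAGT starting 29 bases before the start. CAAAGT also stood before Ace, in its reverse complement 102 bases before the upstream start site, and 12.6% of all 32851 promoters in the table hold it. Before its other start site, Ace had only the reverse complement of CAAAGT, at 221 bases, and G and C made up 58% of that stretch. The upstream start site of Ace further had a reversed TATA box 31 bases before it and 4 GC boxes, of which the first 2 overlap each other. TATAAA occurs in 12.4% of promoters and GGGCGG in 32.7%. Slc7a8 and Slc3a2 had 1 GC box each and Anpep had 3, whereas Mep1a had 0. The bases G and C made up 41.6% of the stretch before Mep1a, 53.6% before Slc3a2, 55.6% before Slc7a8, 67.2% before the upstream Ace start and 72.8% before Anpep, against a median of 52.4% over all promoters. The 4 motifs for Cdx, GATA, HNF1 and the amino acid response had no match before any of these genes. A match describes letters in this window and is not evidence of a bound factor.

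The data come as MAS5 signals, which are linear intensities summarised per probe set, and as the authors' signal log ratio (SLR), a log2 value of high-glucose against control. The high-glucose array was dimmer almost throughout, with a median signal of 7.9 against 13.1. A probe set was called expressed when its mean log2 signal reached the median level of the array. Over the 11315 expressed probe sets the median log2 ratio of high-glucose over control was -0.97, and a gene's relative log2 ratio is measured from that shift. Deposited signals were higher on the high-glucose array for 3 of the 5 genes and for 5.28% of expressed probe sets. Among these 3, Mep1a counted as expressed only through its high-glucose signal, so it was bound to be higher, and Slc7a8 read 10.8 and 10.9. All 3 were dim, and among the dimmest 2829 expressed probe sets, which include them, the share was 13.7%. Relative to the shift, 4.92% of expressed probe sets were higher by 2-fold or more and 4.97% lower by as much.

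Measured in signals, Mep1a, Ace and Slc7a8 stood higher on the high-glucose array than the array as a whole, and Anpep and Slc3a2 moved with it. In the authors' deposited table Mep1a was also higher on high glucose, but the SLR of the other 4 genes was negative, as it was for 64% of that table, with 36% positive. In RNA of whole tissue, fewer cells of a type and less RNA per cell cannot be told apart. All 5 genes counted as expressed, which marks a rank on the array, since no detection call was used. Whether the dim signals of Mep1a, Slc7a8 and Ace stand above background was not tested. Of them, 2 were at least 2-fold higher relative to the shift (background 4.92%), 3 were at least 1.5-fold higher (background 14.7%), and 0 were 1.5-fold lower (background 14.3%). These backgrounds are shares of all expressed probe sets, most of them brighter than the 3 genes that stood higher. Mep1a is in these counts only because its high-glucose signal carried it past the limit for expressed, so its place among them was bound to be high. Of the 4 genes without it, 1 was at least 2-fold and 2 at least 1.5-fold higher. The median relative log2 ratio was 0.98 over the 5 genes and 0.46 without Mep1a, beside -0.01 over the 1067 expressed named genes, and their median SLR was -0.7, beside -0.4 over the 1559 named genes. The 5 were picked with these values known, so nothing particular to them is read from the medians.

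**Figure D1:**
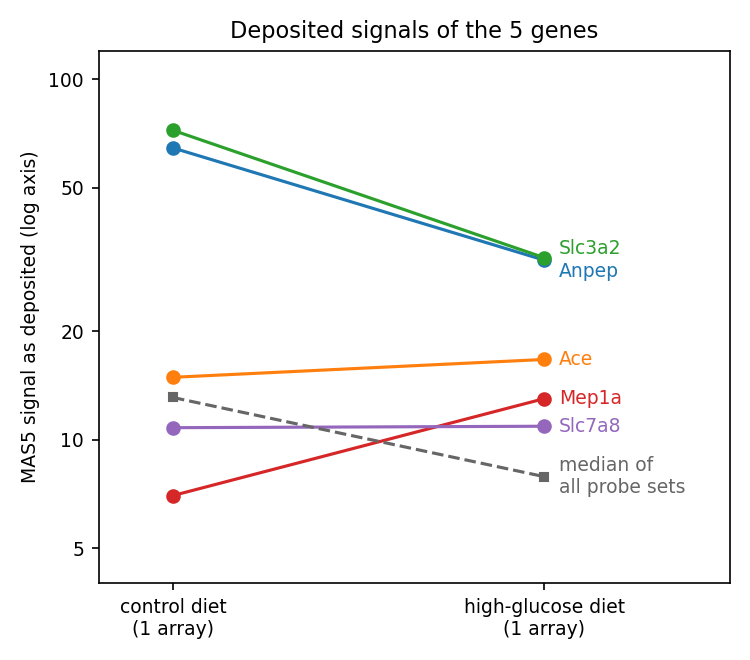
Deposited MAS5 signal (log axis) of each gene on the control and the high-glucose array, 1 point per array, with the median of all probe sets dashed. Mep1a went from 7.0 to 13, Ace and Slc7a8 stayed nearly level, and Anpep and Slc3a2 dropped along with the median; heights of different genes are not comparable, since probe sets differ in affinity.

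The Mep1a signal was 7.0 with control diet and 13 with high glucose. The high-glucose value was 1.86 times the control value, on an array where most signals were lower. The log2 ratio was 0.89 as deposited and 1.86 relative to the shift, which is 3.64-fold. Its control signal lay at the 36.7th percentile of the array and its high-glucose signal at the 62.9th. The mean level of 3.25 on the log2 scale passed the limit of 3.24 by 0.01, and it did so through the high-glucose array alone, because the control signal was below the 9.45 that the limit corresponds to. The SLR of Mep1a in the authors' deposited table was 0.9, and 19.7% of the table's 1625 probe sets were at or above that value.

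For Ace, the control array read 14.9 and the high-glucose array 16.7. These were nearly equal as deposited, with a log2 ratio of 0.16, and the relative log2 ratio was 1.14, or 2.20-fold. Of expressed probe sets, 3.54% reached that relative ratio. The authors' deposited table gave Ace an SLR of -0.7, in the other direction, and 21.8% of its probe sets had that value or a lower one. The Ace probe set, like those of Anpep and Slc3a2, carries the suffix by which Affymetrix marks probe sets shared by several transcripts of 1 gene. Where its probes lie was not examined, so the Ace signal is not assigned to either of the 2 start sites.

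Anpep read 64.5 with control diet and 31.5 with high glucose. This was a log2 ratio of -1.03, nearly the shift itself, and the relative log2 ratio was -0.06. Its place in the array hardly differed, the 78.8th percentile on control and the 79.3rd on high glucose. The authors' deposited table had Anpep at an SLR of -0.4, which is the median of that table.

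Slc3a2, the heavy chain, read 72.2 with control diet and 32 with high glucose. The log2 ratio was -1.17 as deposited and -0.20 relative to the shift, and 34.4% of expressed probe sets lay at or below it. Slc3a2 thus stayed at the same height in the array, at the 80.4th and the 79.5th percentile. Its SLR in the authors' deposited table was -0.8.

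Slc7a8, the light chain, gave 10.8 with control diet and 10.9 with high glucose. The log2 ratio of these was 0.013 as deposited, which placed it 0.98 above the shift, or 1.98-fold. Of expressed probe sets, 5.13% were at or above that relative ratio. The authors' deposited table gave it the lowest SLR of the 5 genes, -1.2, and 6.15% of the table's probe sets had that value or a lower one. Slc7a8 was the only 1 of the 5 with an SLR past 2-fold in size, a mark that 27.9% of the table's probe sets passed.

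Multiplying all signals of an array by 1 factor leaves differences between genes as they are, whereas quantile normalization, loess centring and a pseudocount do not. The log2 ratio of the light chain Slc7a8 exceeded that of its heavy chain Slc3a2 by 1.19 in the signals (0.89 after quantile normalization, 0.86 after loess centring and 0.88 with a pseudocount of 16), but its SLR was 0.4 lower, at -1.2 against -0.8 in the authors' deposited table. Among the peptidases, the log2 ratio of Mep1a exceeded that of Anpep by 1.93 in the signals (1.10 with the pseudocount) and by 1.3 in the authors' deposited table, so these sources gave the same order. For Ace and Anpep they did not, since Ace was 1.20 above Anpep in the signals (0.84 with the pseudocount) and stood at an SLR of -0.7 against -0.4 in the authors' deposited table. The arrays repeat a measurement only where a gene has a further probe set. For the 21 genes whose 2 brightest named probe sets were both expressed, none of them among the 5 described here, the SD of the difference between their relative log2 ratios was 0.48, or 0.32 without the pair of 1300007C21Rik, which differed by 1.88. These pairs were brighter than Mep1a, Ace and Slc7a8, with a median log2 signal of 9.34, and 11 of them belong to ribosomal protein genes.

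Level moved with these ratios. Expressed probe sets were divided by mean level into 4 classes of equal size, and Mep1a, Ace and Slc7a8 all fell in the lowest, Anpep and Slc3a2 in the third. In the lowest class, with mean signals from 9.45 to 17.0, the relative log2 ratios had an SD of 0.82 and a median of 0.17. Of its 2829 probe sets, 29.4% were at least 1.5-fold higher, 12.9% at least 2-fold higher, and 13.7% had a higher deposited signal on the high-glucose array. Within that class 9.51% of probe sets were at or above Ace and 13.3% at or above Slc7a8, and no such share is given for Mep1a, which entered the class through its high-glucose signal alone. In the class of Anpep and Slc3a2 the SD was 0.59, and 7.32% of probe sets were at least 1.5-fold higher. How far the low level shaped the 3 ratios was not tested.

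**Figure D2:**
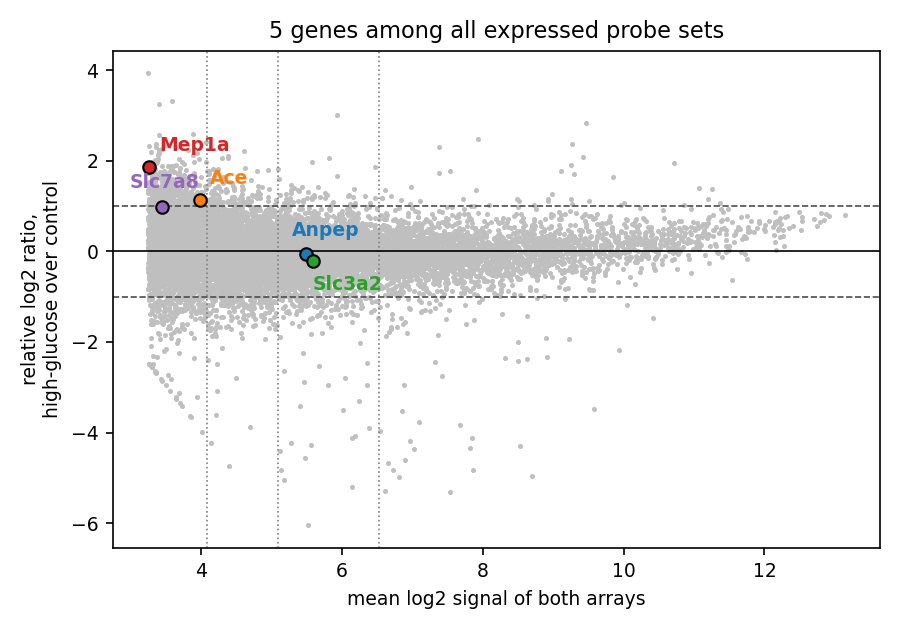
Relative log2 ratio (high-glucose over control) against mean log2 signal for the 11315 expressed probe sets (grey) and the 5 genes (coloured). Dotted lines divide the 4 level classes and dashed lines mark 2-fold; Mep1a, Ace and Slc7a8 lie in the lowest class, where the grey points spread most, and Anpep and Slc3a2 lie near 0.

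Both sources are labelled as the same pair of diets, yet for Ace and Slc7a8 they pointed opposite ways. Whether the authors computed the SLR from these same arrays with the same scaling is not stated in the files or labels, and the sources can lie far apart elsewhere. The pancreatic gene Clps, for example, was listed at 1.2 by the authors' deposited table and had a log2 ratio of -5.80 in the signals. The hepatocyte gene Plg, bright on both arrays, was listed at 4.2 and had a log2 ratio of -0.99. These gaps differ in size, so 1 factor per array would not close both. The relative log2 ratio and the SLR had opposite signs for Ace and Slc7a8, 2 of the 5 genes. They did so for 41.9% of the 1110 expressed probe sets of the authors' deposited table. The share among the 5 genes was thus close to the background. Among its 803 expressed probe sets with a negative SLR, 12.5% had a signal ratio at least 1.5-fold above the shift, as Ace and Slc7a8 did. Mep1a was positive and Slc3a2 and Anpep were negative in both sources, the latter by only 0.06 in relative log2 ratio.

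**Figure D3:**
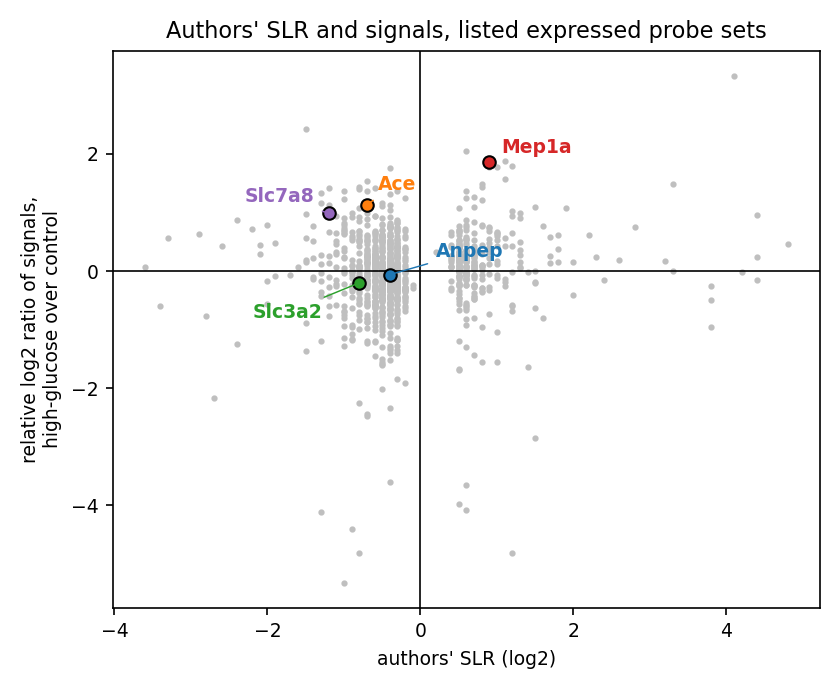
Relative log2 ratio of the signals against the SLR of the authors' deposited table for its 1110 expressed probe sets (grey) and the 5 genes (coloured). Mep1a lies in the upper right, Ace and Slc7a8 in the upper left where the sources have opposite signs, and Slc3a2 and Anpep just below 0.

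Other genes of peptide and amino acid handling were looked up from lists chosen with earlier results known. Of 14 brush border peptidases, 4 were named, 1 listed by the authors' deposited table as positive and 3 as negative. The gene beyond the 3 peptidases above was Ggt1, the gamma-glutamyl transferase that starts glutathione breakdown at the cell surface, listed at -0.4 by the authors' deposited table. Its control and high-glucose signals of 6.5 and 6.9 were nearly equal, like those of Ace, but it did not count as expressed. Of 15 intracellular peptidases, 3 were named and expressed and 0 passed 1.5-fold in either direction. Of all expressed probe sets 29% passed it, so 0 of so few genes says little. Rnpep, an aminopeptidase for basic residues, read 21.1 and 15.6, which is 0.54 as a relative log2 ratio. Dnpep, the aspartyl aminopeptidase, stood at 0.27 and Dpp3, a dipeptidyl peptidase, at -0.16.

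Of 31 amino acid and peptide carriers, 6 were named, 1 positive and 5 negative in the authors' deposited table, and only Slc3a2 and Slc7a8 counted as expressed. Among 7 known partners of the Slc3a2 heavy chain, 3 were named, and all 3 had a negative SLR, as 64% of the table did. LAT1, encoded by Slc7a5, was listed at -3.1 by the authors' deposited table, but had signals of 1.5 and 1.9 that lay under the floor of 2.9 used for the ratios, so no ratio is given. The light chain Slc7a7, which carries cationic amino acids out of the epithelium, had signals of 6.4 and 4.4 and was listed at -0.5 by the authors' deposited table. Slc6a14, a carrier of neutral and cationic amino acids, was the highest of the list by SLR in the authors' deposited table, at 3.5, yet its signals were 3.8 with control diet and 0.2 with high glucose. The taurine carrier Slc6a6 had signals of 17.1 and 5.1 and was listed at -0.5 by the authors' deposited table.

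Slc3a2 is also known as a target of the amino acid response, which ATF4 drives when amino acids are short. Of 16 genes of that response, 3 were named and expressed, and 0 were 1.5-fold higher or lower relative to the shift (background 29%). Asparagine synthetase (Asns) stood at a relative log2 ratio of 0.37, the serine-glycine enzyme Shmt2 at -0.16 and the pseudokinase gene Trib3 at -0.22, beside -0.20 for Slc3a2. Of 18 genes of amino acid metabolism, 4 were named and expressed, and 0 passed 1.5-fold in either direction (background 29%). With so few genes named, these counts of 0 do not show that either group was unchanged. The authors' deposited table listed all 4 as negative, on the side of 64% of its probe sets. The aspartate aminotransferases Got1 and Got2 had relative log2 ratios of 0.53 and 0.13, the alanine aminotransferase Gpt 0.14, and glutamate dehydrogenase (Glud1) -0.42. Ace was the only named member of 9 genes of the renin-angiotensin system. Of 8 enterocyte transcription factors, Gata6 was named and read 25 and 8.8, which is -0.53 as a relative log2 ratio.

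**Figure D4:**
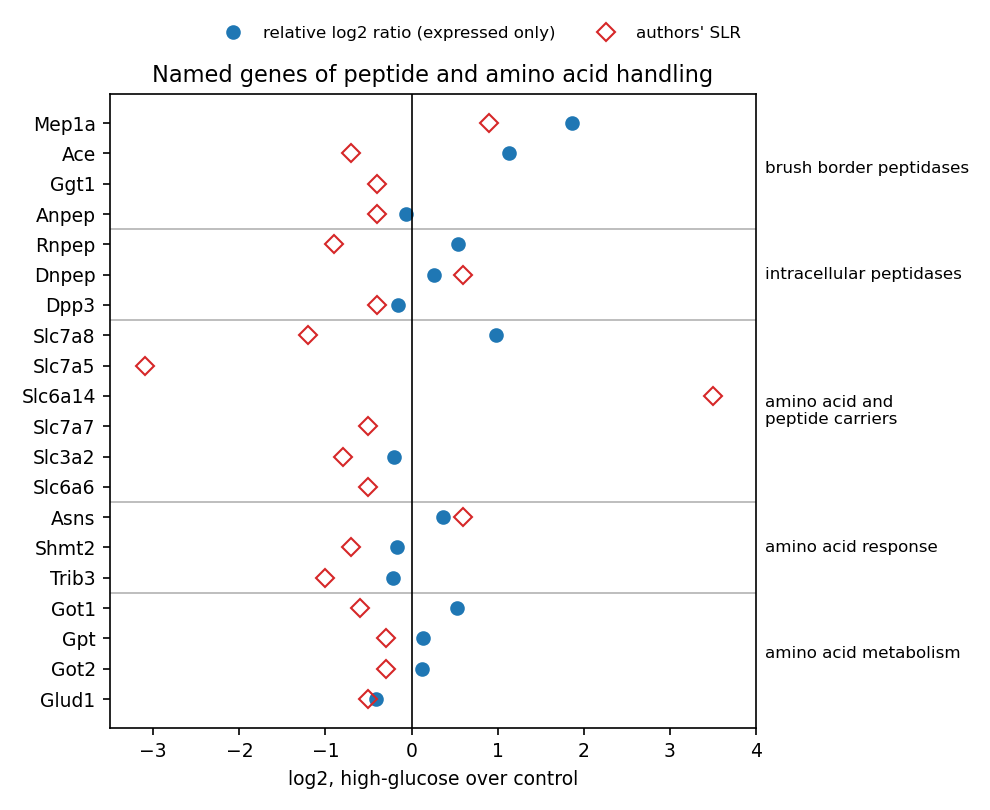
Relative log2 ratio of the signals (filled circles, expressed genes only) and SLR of the authors' deposited table (open diamonds) for the named genes of 5 lists of peptide and amino acid handling. Mep1a, Ace and Slc7a8 are the only filled circles past 0.58 (1.5-fold), and Slc7a5 and Slc6a14 have the most distant diamonds without a filled circle.

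The labelled tissue was set against marker genes that the authors' deposited table names. Of 16 enterocyte markers 4 were named and all 4 were expressed, with signals that summed to 3299 with control diet and 2166.5 with high glucose. Apob alone gave 2817.8 and 1587.6 of these sums, and Fabp2 455.3 and 557.9, so the sums hardly reflect Lgals4 and Treh. Fabp2, the intestinal fatty acid binding protein, and Lgals4, a galectin of the gut epithelium, had relative log2 ratios of 1.26 and 1.25, in the range of Ace. Lgals4 read only 9.5 and 11.5, in the lowest level class, where 12.9% of probe sets were at least 2-fold higher. Apob and the brush border trehalase Treh stood at 0.14 and 0.17, and Treh was dim too, at 16.6 and 9.5. Of 8 Paneth cell markers 6 were named and 0 expressed. Of 8 goblet cell markers 4 were named and 2 expressed. Tff3 lay close to the shift, while Zg16 had signals of 514.3 and 16.7, a relative log2 ratio of -3.97. Since the 2 differed this much, no change of goblet cells is read from Zg16. Both named hepatocyte markers of 14 lay above the 90th percentile on both arrays, with a summed signal of 9036.9 and 6059.3. They were Plg, at 3968.3 and 1994, and Serpina1a, at 5068.6 and 4065.3. Each read higher on both arrays than any named enterocyte marker, although probe sets differ in affinity. The named markers thus do not establish that the 5 genes were read in enterocytes, and whether the RNA held liver was not tested. The 4 named pancreatic acinar markers of 14 summed to 3751.1 with control diet and 87.8 with high glucose. Their relative log2 ratios ran from -4.83 to -4.08, near that of Zg16, and the cause was not tested. None (0) of 8 endothelial and 8 renal tubule markers was named, and 1 of 8 myeloid markers was (Cd14, signals 29.7 and 16.5). Of 8 smooth muscle markers 7 were named, all 7 with a positive SLR in the authors' deposited table (median 1.0), and 2 were expressed. Signals of the 7 summed to 54 and 30.5, of which Acta2 gave 26.4 and 4.6 and Tagln 11 and 10.5. Of 9 B cell markers 8 were named, 7 with a negative SLR there (median -2.9), and only Igkc was expressed. The summed B cell signal was 519.7 with control diet and 314.3 with high glucose, and Igkc alone gave 493.3 and 295.6 of it. Igkc had an SLR of 0.5 and a relative log2 ratio of 0.23, so the lower sum does not bear out the negative SLRs. Cd22 and Ighm read 0.3 and 0.2 on both arrays. None of the marker sums is corrected for the shift between the arrays. Of 8 T cell markers 2 were named, both listed as negative by the authors' deposited table, and Lck was expressed at a relative log2 ratio of 0.62, and of 8 enteroendocrine markers only Chgb was named, not expressed. Ace and Anpep are known to be made outside the epithelium too. The part of other tissues or cell types in the values of the 5 genes was not tested.

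Scaling decided the sign of Slc7a8 and Anpep. With ratios centred on the 18 hybridisation spike probe sets, RNAs added just before hybridisation, Mep1a had a log2 ratio of 0.77, Ace 0.044, Slc7a8 -0.11, Anpep -1.15 and Slc3a2 -1.29. Centred on the 27 probe sets of poly-A spikes, which can be added before labelling, the values were 1.82, 1.09, 0.94, -0.11 and -0.25 in the same order. Anpep, close to the shift, came out at 0.04 after quantile normalization and 0.02 after loess centring. Mep1a stayed above 0 and Slc3a2 below 0 in all 14 settings tried, the SLR included. Apart from the SLR, these settings reuse the same 2 signals. The Mep1a signal was higher as deposited on the dimmer array, so its sign was nearly fixed in advance. Slc3a2 came as close to 0 as -0.10, after quantile normalization.

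**Figure D5:**
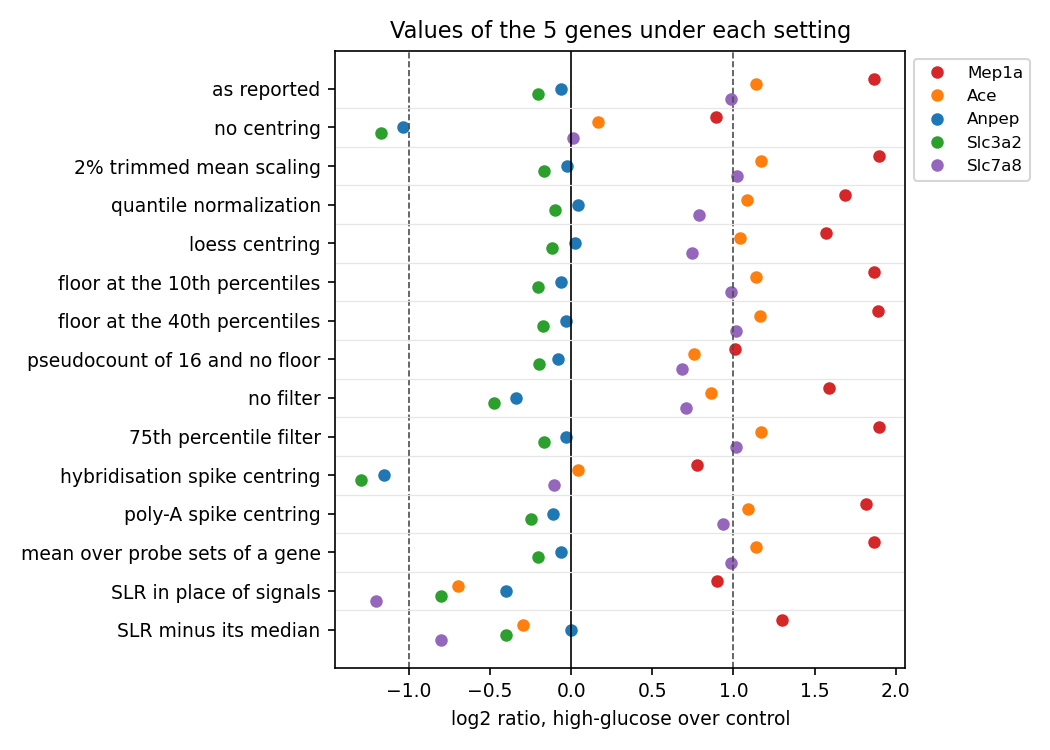
Log2 ratio (high-glucose over control) of the 5 genes as reported and under 14 alternative settings, with dashed lines at 2-fold. Mep1a lies right of 0 in every setting, Slc3a2 left of 0, and Ace and Slc7a8 cross to the left when the authors' SLR replaces the signals.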

How the data were processed

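The deposited intensity values are signals that the authors made with MAS5, per the submitters' processing notes (version not stated there), for 22690 probe sets on each of 2 arrays; their scaling target is unknown here. The authors' deposited comparison table gives log2 values (SLR, in steps of 0.1) for 1625 probe sets; its direction comes from its title, and the sources used here do not give its rule of selection or its scaling. Its other column, a signed fold, was found to be the SLR restated and was not used. Gene symbols came from that table: 1314 were current in RefSeq (GRCm38.p6), 213 were updated through a synonym, 56 were kept and 42 probe sets had none.

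Before taking log2, signals were raised to at least 2.9, which averages the 25th percentiles of both arrays without the 64 control probe sets. The design assumed comparable arrays; as they were not, ratios were centred on the median of expressed probe sets. A gene is represented by its brightest probe set. With 1 array per diet there is no test. All 5 genes are described, and named genes of every list are given or counted; no gene of like pattern was named, since any 2 genes correlate perfectly over 2 arrays. The members, lists and motifs were chosen with earlier results of these data known. The procedure was tested on simulated data. Python 3.11.15, numpy 2.4.6, pandas 2.3.3 and statsmodels 0.14.6 (loess) were used.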

Additional observations from a re-analysis of the deposited data

How the results depend on the processing

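Under 14 alternatives Mep1a stayed above 0 and Slc3a2 below 0 in all 14, Ace was above 0 in 12 and Slc7a8 in 11, and Anpep was below 0 in 11 and above it in 2. The mean over probe sets of a gene, 1 of the 14, was bound to repeat the reported value. Apart from the SLR, the others reuse the same 2 signals, so the sign of Mep1a, higher as deposited, was nearly fixed. The lowest and highest values were 0.77 and 1.90 for Mep1a, -0.7 and 1.17 for Ace, -1.15 and 0.04 for Anpep, -1.29 and -0.10 for Slc3a2 and -1.2 and 1.02 for Slc7a8. A value counts as moved here when it differed by more than 0.48, the SD between paired probe sets. That SD comes mostly from brighter genes than Mep1a, Ace and Slc7a8 and is 0.32 without the pair that differs most, so it is a rough mark. Without centring the log2 ratios were 0.89, 0.16, -1.03, -1.17 and 0.013 in that order, and with centring on hybridisation spikes, added after seeing the data like the poly-A spikes, 0.77, 0.044, -1.15, -1.29 and -0.11. A pseudocount of 16 without a floor brought Mep1a to 1.01, where it did not count as expressed. The SLR in place of the signals gave 0.9 for Mep1a, -0.7 for Ace, -0.8 for Slc3a2 and -1.2 for Slc7a8, and the SLR minus its median 1.3 for Mep1a, -0.3 for Ace and -0.8 for Slc7a8; Ace and Slc7a8 turned sign there, and the cause was not tested. With the filter at the 75th percentile, Mep1a, Ace and Slc7a8 no longer counted as expressed, and Mep1a did not with a floor at the 40th percentile.

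The counts of expressed probe sets past 2-fold, 557 higher and 562 lower, were 41 and 5402 without centring, 27 and 6507 with hybridisation spikes, 106 and 199 with the pseudocount, 2257 and 2094 without a filter, 100 and 182 with the stricter filter, 1664 and 1617 at 1.5-fold and 133 and 165 at 3-fold. Of the brush border peptidases, 2 were 1.5-fold higher and 0 lower as reported. The higher count was 1 without centring, with hybridisation spikes, with the pseudocount and with the 40th percentile floor, 0 with the stricter filter and 3 without a filter, while the lower count was 1 without centring and with hybridisation spikes. Of the carriers, 1 was higher and 0 lower as reported. The higher count was 0 without centring, with hybridisation spikes and with the stricter filter, and 2 without a filter, and the lower count was 1 without centring, with hybridisation spikes and without a filter. Over the other lists together, leaving out those of cell type markers, 0 genes were 1.5-fold lower as reported. This count was 9 without centring and with hybridisation spikes, 1 with quantile normalization, loess or the pseudocount, and 2 without a filter. No paired analysis was possible because each diet has 1 array.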
